A study of Homo sapiens with 3 samples.

Results

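The genes described here are the human translation initiation factors, taken as every protein-coding gene whose symbol starts with EIF1, EIF2, EIF3, EIF4, EIF5 or EIF6, except the eIF2 kinases (symbols starting with EIF2AK). The rule found 52 genes among the 60664 gene identifiers of a deposited count table, and 49 of them were measured, meaning that they reached a CPM (the count per 1000000 of the scaled library total) of 1 in at least 1 library. Caco-2 is an established human colon carcinoma line, labelled wild type, that is grown as a model of the intestinal epithelium. It was sequenced as 3 RNA libraries with 1 library per group. The control cells received no agent. The DSS cells received 3% dextran sulfate sodium, a sulfated polysaccharide that provokes colitis in rodents, for 8 h. The DSS+polydatin cells received 30 µM polydatin, a glucoside of resveratrol, for 2 h before DSS and then together with 3% DSS for 8 h. By its title, the series is about polydatin and ferroptosis in colitis caused by DSS.

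Initiation is the step at which a ribosome is loaded on a messenger RNA and finds the start codon. The eIF2 complex brings the initiator tRNA to the small ribosomal subunit with the help of eIF1, eIF1A, eIF3 and eIF5, while the cap-binding protein eIF4E, the scaffold eIF4G and the helicase eIF4A bring in the messenger RNA. Cells control the process mainly at 2 points: phosphorylated eIF2 blocks its exchange factor eIF2B, and the 4E-BP repressors compete with eIF4G for eIF4E unless the kinase mTORC1 phosphorylates them.

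The control, DSS and DSS+polydatin libraries held 18695613, 18825914 and 16667622 counts, so 1 CPM stood for 18.2, 18.5 and 17.4 counts. CPM is the count per 1000000 of a library total that was scaled by trimmed mean of M values (TMM). Mitochondrially encoded genes took 5.31%, 4.77% and 4.34% of the counts. Of 12 epithelial markers, 10 were measured, with summed levels of 7873, 9488 and 7790 CPM. In DSS+polydatin against control 4 of the 10 lay above 1 and 6 below. The lowest was CDX2, at 147, 118 and 78.3 CPM, with ratios of 0.533 (0.499 to 0.569) against control and 0.665 (0.621 to 0.712) against DSS. The highest was CDH17, at 431, 614 and 639 CPM, with a ratio of 1.48 (1.44 to 1.53) against control. CDX1 was at 0 in every library and KRT20 reached 10 counts at most. Of 10 markers of other cell types, 6 were measured, with summed levels of 75.2, 61.7 and 65.0 CPM. Within that sum the endothelial genes went apart: VWF had 9, 22 and 68 counts, and PECAM1 443, 297 and 166, with ratios of 7.87 (3.91 to 17.9) and 0.390 (0.324 to 0.467) in DSS+polydatin against control. The leukocyte marker PTPRC was at 0 in every library, CD68 and CD79A had at most 2 counts, and CD3E had 0, 1 and 5. The part of these shifts in the results below was not tested. With 1 library per group there is no spread between cultures, so the values below compare libraries, and no test of a treatment could be made. Each ratio of CPM carries an exact 95% Clopper-Pearson interval that covers counting error only. A gene is called higher or lower when its ratio is at least 1.5-fold from 1 and the interval excludes 1.

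The initiation factors were abundant genes that lay lower, as a set, in both treated libraries than in control. Their summed level was 13206 CPM in control, 12108 in DSS and 10709 in DSS+polydatin, or 1.28%, 1.19% and 1.12% of all counts. Per transcript length, as TPM (the count divided by the length of the gene's exons, per 1000000 of its sum over genes), their median was 133, 108 and 99.6, where the median of all measured protein-coding genes was 22, 23.3 and 25.1. In the control library 24 of the 49 were among the 1000 genes of highest TPM. In bulk RNA, fewer cells of a type and less RNA per cell cannot be told apart, and every value is relative to the rest of its library.

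In DSS against control, no initiation factor was called higher and 2 were called lower, EIF4EBP1 and EIF2S2. Among all 12279 measured protein-coding genes, 9.39% were called higher and 5.31% lower, so the count of 2 among 49 was close to the general share of lower genes. At 10 CPM or more, a level that 45 of the 49 members reached, 7.42% of all genes were higher and 4.26% lower. Most members differed by less. The median ratio was 0.906 (log2 -0.14), against a log2 median of -0.00 over all measured genes, and 37 of 49 members lay below 1 (75.5%, against 50.4% of all). At a 1.2-fold threshold, 11 members were lower and none higher, where 18.3% of all genes were lower and 20.3% higher.

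In DSS+polydatin against DSS, again none was called higher, and 3 were called lower: EIF5A, its copy EIF5AL1, and EIF3CL. The general shares were 4.77% higher and 2.34% lower. Without near-copies and read-through genes, or at 10 CPM or more, the count was 1 (EIF5A), which is near the general share. Among all genes at 10 CPM or more, 2.28% were higher, 2.2% lower and 58.0% below 1. The median ratio was 0.872 (log2 -0.20, against -0.03 for all genes) and 41 of 49 members lay below 1 (83.7%, against 53.4%). At 1.2-fold, 16 were lower and 2, EIF1 and EIF3C, were higher, beside 15.4% and 13.7% of all genes.

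DSS+polydatin against control gave the widest separation. No member was called higher and 12 were called lower, which is 24.5% of the 49, where 15.8% of all measured genes were called higher and 12.4% lower. Among genes at 10 CPM or more these shares were 12.6% and 12.9%. The 12 were EIF1AX, EIF2B1, EIF2B3, EIF2S1, EIF2S2, EIF3B, EIF3CL, EIF3J, EIF4E, EIF4EBP1, EIF5A and EIF5AL1. The median ratio was 0.791 (log2 -0.34, against -0.03 for all genes) and 38 members lay below 1 (77.6%, against 52.3%). At 1.2-fold, 31 were lower and 2, EIF1 and EIF4E3, were higher, beside 29.4% and 26.3% of all genes. With total counts in place of TMM the number called lower was 7, and all genes were then called higher in 19.6% and lower in 8.19%; in DSS+polydatin against DSS that scaling gave 6.84% and 1.36% with the members' count at 3. Without near-copies and read-through genes, 10 of 44 members (22.7%) were called lower in DSS+polydatin against control. With a trend on GC content and length removed, 9 of the 49 were, beside 12.9% of all genes lower and 11.5% higher. The 3 comparisons share libraries in pairs and are not independent of each other.

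**Figure D1:**
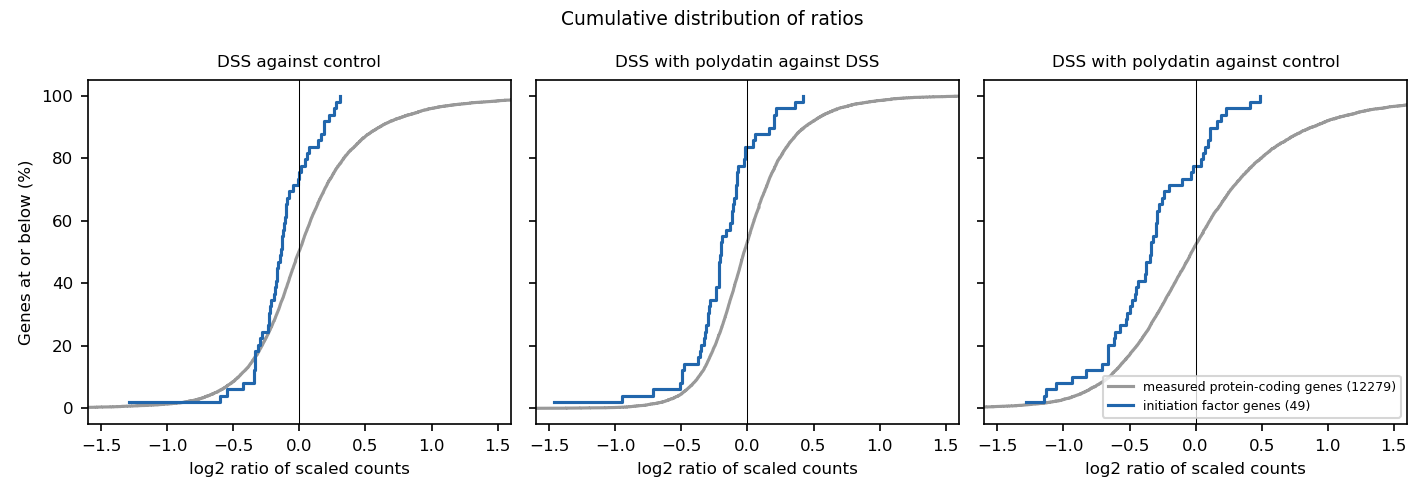
Cumulative share of genes (vertical axis, percent) against the log2 ratio of CPM (horizontal axis) in each of the 3 comparisons, for the 49 measured initiation factors and for all 12279 measured protein-coding genes. The curve of the initiation factors lies to the left of the general curve around the middle, with medians of -0.14, -0.20 and -0.34, and no member is called higher.

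**Figure D2:**
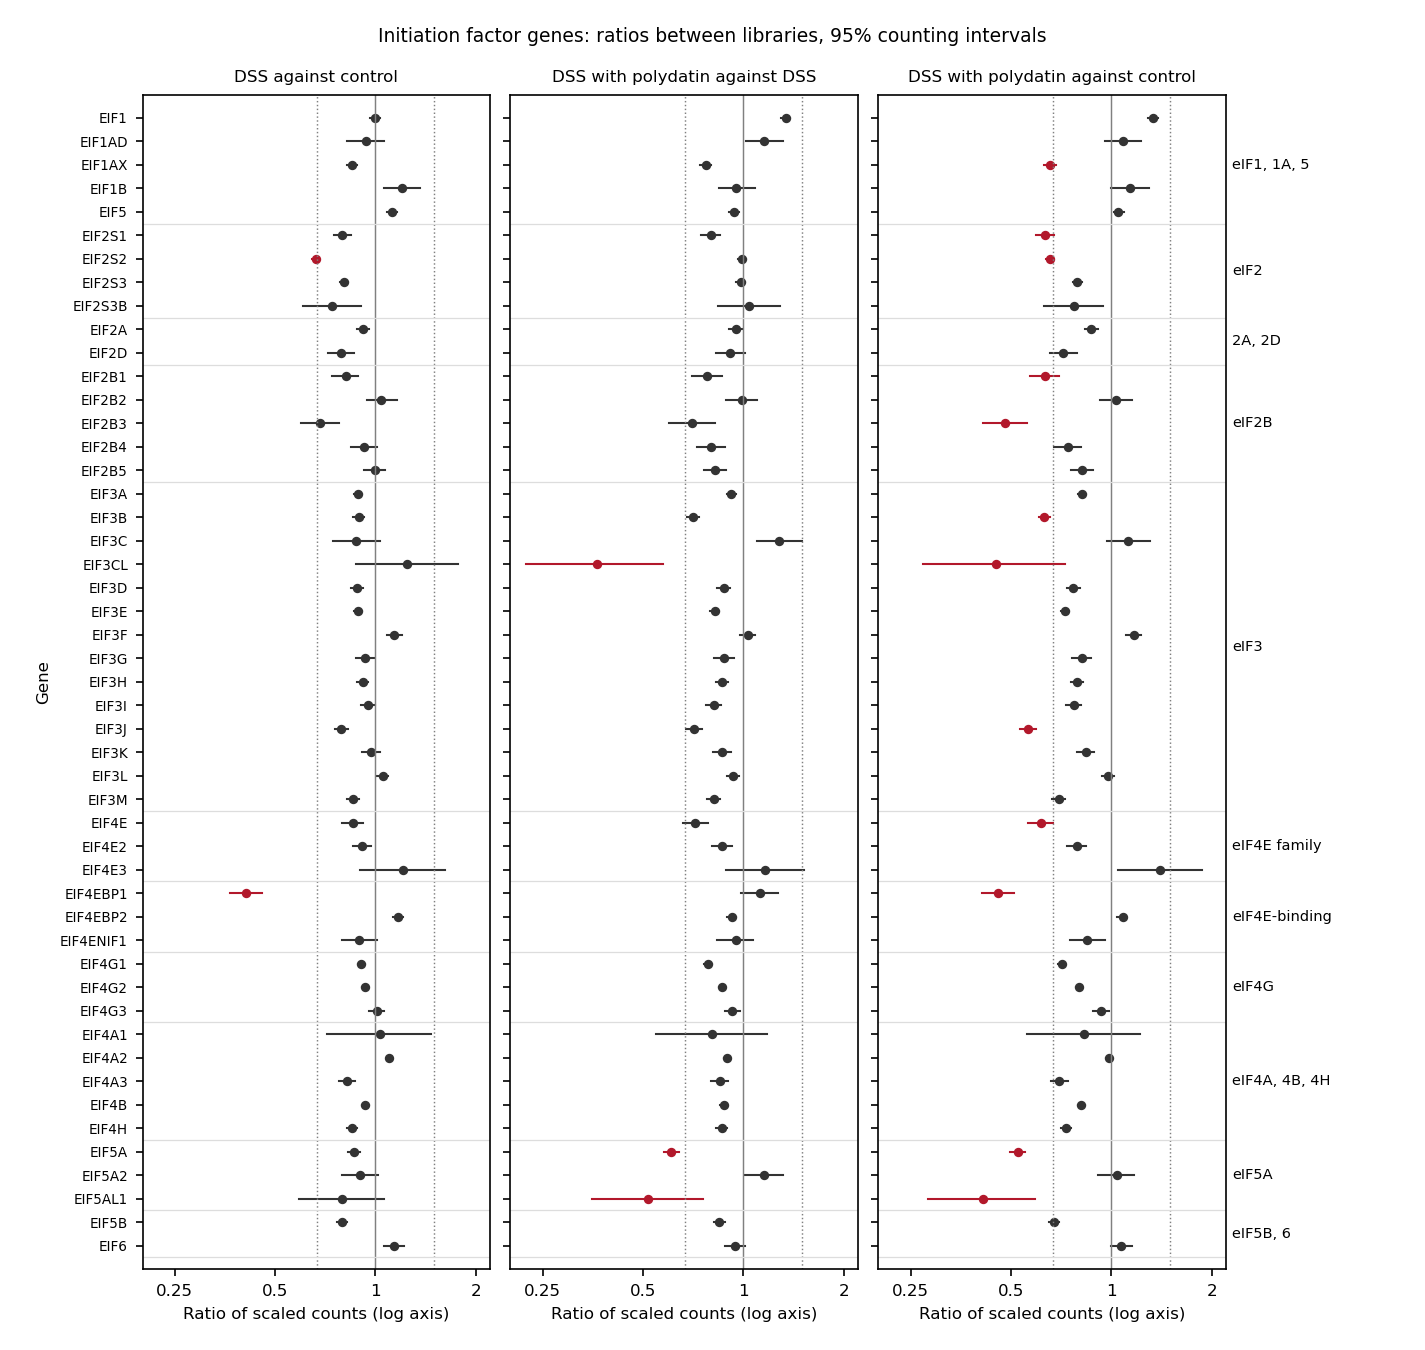
Ratio of CPM (horizontal log axis) for each of the 49 measured initiation factors (vertical axis, grouped by role) in each of the 3 comparisons, with lines for the exact 95% counting interval, dotted lines at 1.5-fold and called genes in red. EIF4EBP1 stands apart in DSS against control. EIF3CL, EIF5AL1 and EIF5A are furthest down in DSS+polydatin against DSS. EIF1 lies on the higher side in both comparisons of the DSS+polydatin library.

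The eIF4E-binding repressors held the member furthest from 1 in DSS against control. EIF4EBP1, which encodes 4E-BP1, the mTORC1-controlled repressor that keeps eIF4E from eIF4G, lies on chromosome 8 (GRCh38, 38030341 to 38060365). Its level was 60.5 CPM (1098 counts) in control, 24.7 CPM (458 counts) in DSS and 27.6 CPM (482 counts) in DSS+polydatin. Both treated libraries lay below control and close to each other: the ratio was 0.409 (95% interval 0.366 to 0.456) in DSS against control, 1.12 (0.982 to 1.27) in DSS+polydatin against DSS and 0.457 (0.410 to 0.509) in DSS+polydatin against control. EIF4EBP2, its paralog with the same eIF4E-binding role, went the other way within a small range, at 410, 478 and 441 CPM. The EIF4EBP2 ratio was 1.17 (1.13 to 1.21) in DSS against control and 0.922 (0.894 to 0.951) in DSS+polydatin against DSS. Per length, the repressors were level in control, with 1.00 EIF4EBP2 transcript for each of EIF4EBP1 (0.940 to 1.07), and EIF4EBP2 then predominated, at 2.86 (2.60 to 3.15) in DSS and 2.36 (2.15 to 2.59) in DSS+polydatin. EIF4EBP3 had 2, 1 and 2 counts and was not measured. Of its exon bases, 73.4% overlap the read-through gene ANKHD1-EIF4EBP3, which had 40, 52 and 62 counts, so its level cannot be read from this table. EIF4ENIF1, the transporter that carries eIF4E into the nucleus and to processing bodies, was at 31.7, 28.4 and 26.9 CPM and was called in no comparison.

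The cap-binding protein itself was lowest in DSS+polydatin. EIF4E (chromosome 4, 98871684 to 98930637) was at 85.3, 72.9 and 52.3 CPM, with ratios of 0.855 (0.794 to 0.920) in DSS against control, 0.717 (0.659 to 0.781) in DSS+polydatin against DSS and 0.613 (0.564 to 0.666) in DSS+polydatin against control, the last of which was called. EIF4E2, a cap-binding relative that represses rather than promotes translation, was at 109, 99.5 and 85.8 CPM, a ratio of 0.786 (0.735 to 0.841) in DSS+polydatin against control. EIF4E3, the scarcest measured member of the family, went from 4.79 to 5.78 and 6.71 CPM, and its ratio of 1.40 (1.05 to 1.87) in DSS+polydatin against control rested on 87 and 117 counts. EIF4E1B, an oocyte form, had at most 1 count. Set against its repressors per length, EIF4E was outnumbered by EIF4EBP1 by 9.29 in control, 4.44 in DSS and 6.93 in DSS+polydatin, and by EIF4EBP2 by 9.31, 12.7 and 16.3. These are ratios of RNA, and they divide by exon lengths of 14067 bases for EIF4E, 1073 for EIF4EBP1 and 7257 for EIF4EBP2. The phosphorylation that sets the repressors' activity was not measured.

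**Figure D3:**
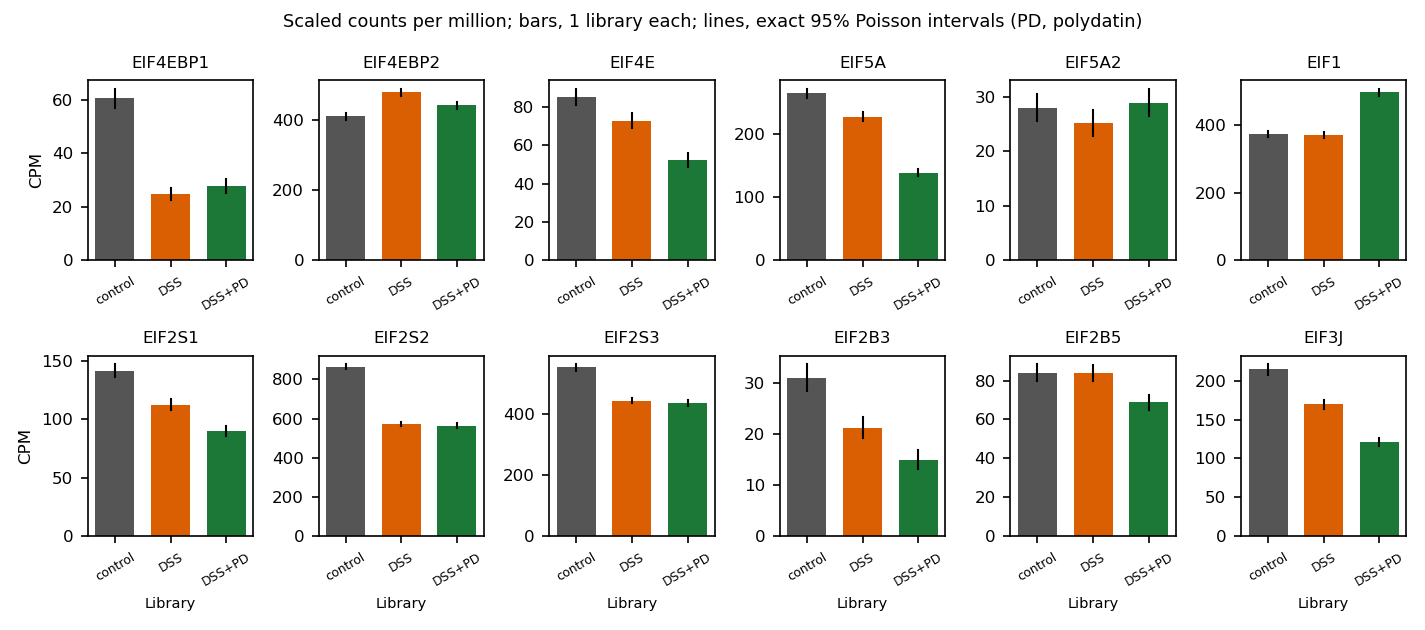
Level in CPM (vertical axes, from 0) in the control, DSS and DSS+polydatin libraries for the members the comparisons turn on, 1 panel and 3 bars each, with black lines for the exact 95% Poisson counting interval. EIF4EBP1 is at 60.5 CPM in control and at 24.7 and 27.6 in the treated libraries, EIF5A steps down to 138 CPM in DSS+polydatin, and EIF1 is highest there at 498 CPM.

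The promoter of EIF4E and 1 of the 3 promoters of EIF4G1 carried the E-box CACGTG, a motif bound by MYC and other basic helix-loop-helix factors. RefSeq promoters on GRCh38.p14, from 250 bases before to 50 after the start, were matched for 44 of the 52 members. The 8 without a match include the called genes EIF2S2, EIF3CL and EIF4EBP1. CACGTG, which reads the same on both strands, was found in 11 of the 44 (25%), in 12.4% of measured protein-coding genes with a promoter and in 8.77% of all genes with one. Counted by promoter, it was in 18.3% of the members' 60 and in 7.26% of all promoters of this length. EIF4E, EIF4G1 and EIF5A2 each had 2 copies, at 225 and 72 bases before the start in EIF4E, at 144 and 67 in EIF4G1 and at 187 and 162 in EIF5A2. In DSS+polydatin against DSS, EIF4E and EIF4G1 were lower (0.717 and 0.783) and EIF5A2 was not (1.15, 1.01 to 1.31). The stretches that hold the paired copies are printed with the E-boxes in capitals.
EIF4E (chr4:98929194-98929363, minus strand): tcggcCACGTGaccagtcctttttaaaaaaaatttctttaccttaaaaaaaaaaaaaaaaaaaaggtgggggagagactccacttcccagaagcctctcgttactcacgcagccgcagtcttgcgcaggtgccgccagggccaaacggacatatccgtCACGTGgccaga
EIF4G1 (chr3:184314456-184314545, plus strand): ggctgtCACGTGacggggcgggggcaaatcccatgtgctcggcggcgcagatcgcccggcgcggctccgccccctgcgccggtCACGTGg
EIF5A2 (chr3:170908788-170908832, minus strand): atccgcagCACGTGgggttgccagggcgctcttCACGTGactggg
The gene MYC, named for context, was at 163, 217 and 120 CPM, with a ratio of 0.555 (0.527 to 0.586) in DSS+polydatin against DSS. Among the 10 measured members with an E-box the median ratio in that comparison was 0.862, and among the 31 without it 0.872, and 0 and 2 of them were called lower (6.45% of the 31). Over all measured genes 4.94% of those with an E-box and 1.93% of those without were called lower there. In DSS against control, where MYC was higher, EIF4E and EIF4G1 were lower (0.855 and 0.906). The members' median ratios there were 0.904 with an E-box and 0.911 without, and those of all measured genes 1.03 and 0.988. Binding was not measured.

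The eIF4G scaffolds, which link eIF4E to eIF4A and to the ribosome-bound eIF3, were graded by member. EIF4G1, the main scaffold, was at 803, 728 and 570 CPM, with ratios of 0.906 (0.885 to 0.928) in DSS against control and 0.783 (0.763 to 0.803) in DSS+polydatin against DSS. The EIF4G1 ratio of 0.710 (0.692 to 0.728) in DSS+polydatin against control was short of a call, and became one (log2 -0.82) when a trend on GC content and length was removed. EIF4G2, a relative that lacks the eIF4E site and serves cap-independent initiation, was the most abundant of the family at 1269, 1179 and 1016 CPM, and its ratio to control in DSS+polydatin was 0.800 (0.785 to 0.816). EIF4G3 was nearly level at 163, 164 and 151 CPM. Per length, EIF4G2 exceeded EIF4G1 by 1.51 in control, 1.55 in DSS and 1.70 in DSS+polydatin.

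Among the helicases that unwind the leader, EIF4A2 was at 1289, 1420 and 1268 CPM (740, 844 and 824 TPM). Its ratio was 1.1 (1.08 to 1.12) in DSS against control and 0.893 (0.877 to 0.909) in DSS+polydatin against DSS. With the union of exons as the length, EIF4A2 was the most abundant initiation factor in DSS and came after EIF2S2 in control and DSS+polydatin. That order depends on the length: with the longest transcript EIF3E was first in each library, at 902, 827 and 741 TPM. EIF4A1, known as a major eIF4A helicase of dividing cells, had only 63, 66 and 50 counts (2.3 TPM in control, rank 10873). Of its exon bases 48.6% overlap other annotated genes, 41.0% of its 50-base windows occur in another gene, and its processed pseudogene EIF4A1P10 had more counts than the gene itself (356, 265 and 149). The EIF4A1 value is therefore not given as a level of the helicase; what the counting did with shared and overlapping reads was not tested. The cofactors EIF4B and EIF4H, which raise the helicase activity, were at 839, 781 and 681 CPM and at 397, 337 and 290 CPM, with ratios of 0.812 (0.793 to 0.832) and 0.730 (0.704 to 0.757) in DSS+polydatin against control. EIF4A3, a relative that works in the exon junction complex rather than in initiation, was at 152, 125 and 106 CPM, a ratio of 0.698 (0.658 to 0.741).

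The eIF2 subunits, which form the GTP-dependent carrier of the initiator tRNA, were lower in DSS than in control in all 4 genes of the set. EIF2S2, the beta subunit (chromosome 20, 34088298 to 34112332), was at 1146, 784 and 847 TPM. With the union of exons as the length, it was the most abundant initiation factor in control and DSS+polydatin and came after EIF4A2 in DSS. With the longest transcript it came after EIF3E in control, at 870 against 902 TPM. In CPM it was at 865, 571 and 564 (15703, 10588 and 9841 counts), so the treated libraries lay together below control. Its ratio was 0.661 (0.645 to 0.677) in DSS against control, 0.988 (0.961 to 1.02) in DSS+polydatin against DSS and 0.653 (0.636 to 0.669) in DSS+polydatin against control. Both calls sat at the threshold: they ended with total-count scaling (log2 -0.58 and -0.51) and with the GC and length trend removed (-0.52 and -0.50). Of its 50-base windows 22.6% occur in another gene, mostly in the pseudogene EIF2S2P4, which had 1079, 679 and 644 counts.

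EIF2S1, the alpha subunit whose phosphorylation by the stress kinases shuts initiation down, was at 142, 112 and 89.6 CPM, stepping down in both treated libraries. The EIF2S1 ratios were 0.794 (0.749 to 0.842) in DSS against control, 0.797 (0.746 to 0.851) in DSS+polydatin against DSS and 0.633 (0.594 to 0.674) in DSS+polydatin against control. That last call ended with total counts (log2 -0.55) and with the trend removed (-0.57). EIF2S3, the GTP-binding gamma subunit, was at 554, 445 and 438 CPM, with ratios of 0.804 (0.781 to 0.828), 0.984 (0.953 to 1.01) and 0.791 (0.767 to 0.815) in the same order. Its near-copy EIF2S3B was at 12.9, 9.61 and 9.98 CPM, and 26.8% of its windows are shared with EIF2S3. Between the treated libraries the intervals of the beta and gamma subunits included 1 and that of the alpha subunit did not. Per length the beta transcript exceeded the alpha transcript by 13.0 in control, 10.8 in DSS and 13.4 in DSS+polydatin. EIF2A and EIF2D, tRNA-binding factors that work outside the eIF2 complex, were at 261, 240 and 227 CPM and at 60.5, 47.6 and 43.4 CPM, and neither was called.

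The exchange factor eIF2B, which reloads eIF2 with GTP and is the target of phosphorylated eIF2, had subunits with unequal ratios. EIF2B3, the gamma subunit of its catalytic part (chromosome 1, 44850522 to 44986722), was at 31.1, 21.2 and 14.9 CPM (564, 393 and 260 counts). The EIF2B3 ratios were 0.683 (0.599 to 0.778), 0.703 (0.599 to 0.824) and 0.480 (0.413 to 0.557) in DSS against control, DSS+polydatin against DSS and DSS+polydatin against control, and the last was called. EIF2B5, the catalytic epsilon subunit that EIF2B3 partners, was at 84.1, 83.7 and 68.8 CPM, so it was level between control and DSS (0.995, 0.926 to 1.07). Per length EIF2B5 exceeded EIF2B3 by 1.29 (1.17 to 1.42) in control, 1.87 (1.68 to 2.10) in DSS and 2.19 (1.91 to 2.51) in DSS+polydatin.

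The regulatory subunits of eIF2B, which sense phosphorylated eIF2, were spread as well. EIF2B1 (alpha) was at 58.3, 47.4 and 36.9 CPM, with a called ratio of 0.632 (0.572 to 0.698) in DSS+polydatin against control that fell short with total counts (log2 -0.55) and with the trend removed (-0.53). EIF2B4 (delta) was at 58.9, 54.5 and 43.5 CPM, a ratio of 0.739 (0.672 to 0.811) there. EIF2B2 (beta) was level at 38.2, 39.8 and 39.3 CPM, a ratio of 1.03 (0.926 to 1.15).

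**Figure D4:**
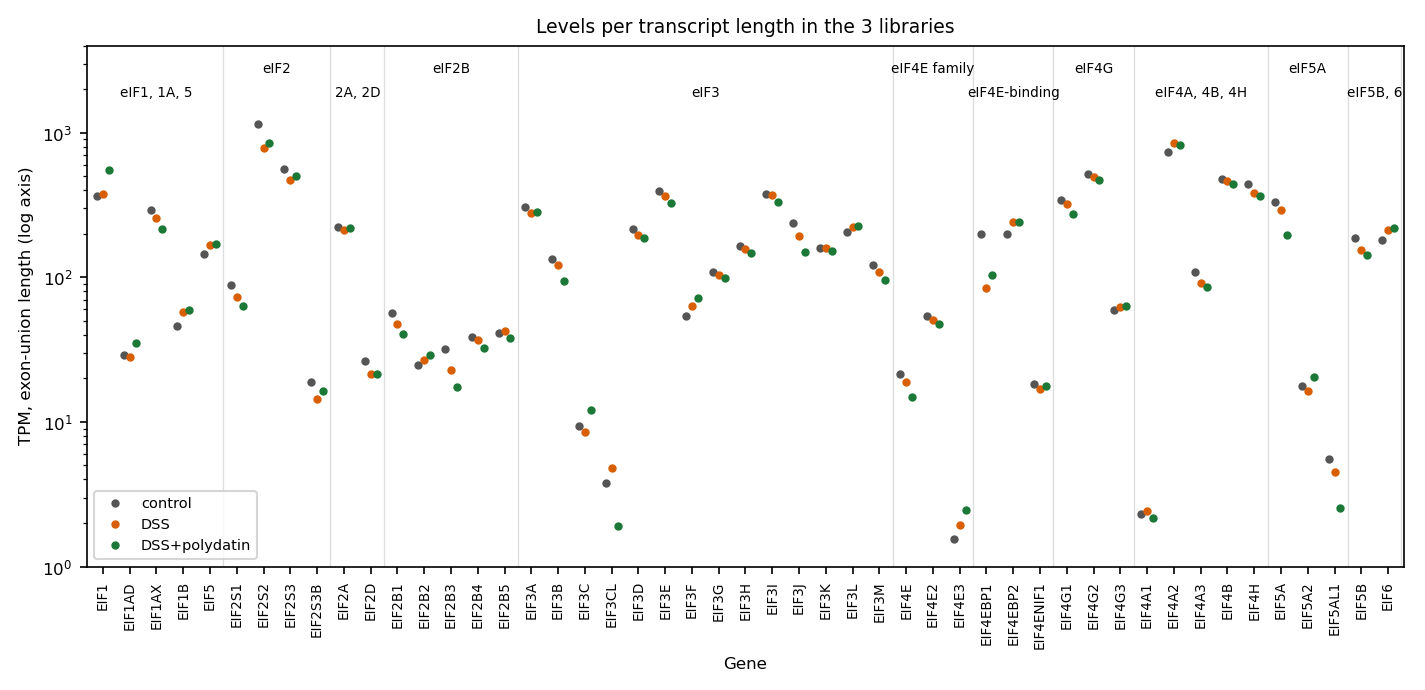
Level per transcript length (TPM over the union of exons, log axis) of the 49 measured initiation factors in the control, DSS and DSS+polydatin libraries, grouped by role. EIF2S2 and EIF4A2 are at the top in each library, at 740 TPM or more. The subunits of eIF2B lie at 56.6 TPM or less, and EIF4A1, EIF4E3, EIF3CL and EIF5AL1 are at the bottom.

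In the eIF2 complex the beta and gamma subunits stood at 1146 and 562 TPM in control and the alpha subunit at 88.2, while the eIF2B subunits ranged from 24.7 (EIF2B2) to 56.6 TPM (EIF2B1). The cap-binding EIF4E, at 21.3 TPM, was below every eIF2B subunit. These levels depend on the length assigned to each gene. With the longest transcript in place of the exon union the control value of EIF4E was 19.8. Both lengths are long for EIF4E, at 14067 and 11523 bases, so this exchange cannot show how far its rank rests on length.

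The scanning factors differed in direction. EIF1 (chromosome 17, 41688885 to 41692668), which keeps the scanning ribosome open and guards the choice of start codon, was at 374, 372 and 498 CPM (6787, 6901 and 8690 counts). It was level between control and DSS (0.997, 0.964 to 1.03) and higher in DSS+polydatin, by 1.34 (1.30 to 1.38) against DSS and 1.33 (1.29 to 1.38) against control, short of the 1.5-fold call. Its partner EIF1AX, the eIF1A gene on the X chromosome, was at 368, 313 and 241 CPM. The EIF1AX ratio was 0.655 (0.630 to 0.681) in DSS+polydatin against control, a call that ended with total counts (log2 -0.50) and with the trend removed (-0.49). EIF5, which opposes eIF1 by triggering GTP hydrolysis on eIF2 at the start codon, was at 348, 389 and 365 CPM. Per length EIF1 exceeded EIF5 by 2.52 (2.44 to 2.61) in control, 2.25 (2.17 to 2.32) in DSS and 3.20 (3.10 to 3.31) in DSS+polydatin. The EIF1 paralog EIF1B was at 25, 30.0 and 28.6 CPM, and EIF1AD, which carries an eIF1A-like domain, at 27.3, 25.5 and 29.5 CPM. EIF1AY was below the level taken as measured.

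The eIF3 complex, the large platform that holds the small ribosomal subunit ready for the messenger RNA, was lower in most subunits by a similar modest amount. Leaving aside EIF3C and EIF3CL, the 12 subunit genes had median ratios of 0.903 in DSS against control, 0.864 in DSS+polydatin against DSS and 0.781 in DSS+polydatin against control, with 10, 11 and 11 below 1. The SD of the log2 ratios across these 12 genes was 0.14, 0.15 and 0.27. EIF3J, a loosely attached subunit that sits in the decoding channel, was furthest down in both comparisons with control, at 215, 170 and 121 CPM, with ratios of 0.790 (0.754 to 0.828), 0.711 (0.673 to 0.752) and 0.562 (0.533 to 0.593) in the same order. EIF3B, a scaffold subunit and the lowest of the 12 in DSS+polydatin against DSS, was at 339, 302 and 214 CPM, with ratios of 0.708 (0.679 to 0.738) in DSS+polydatin against DSS and 0.630 (0.605 to 0.656) against control. The call on EIF3B against control ended with total counts (log2 -0.56), and a call against DSS appeared with the trend removed (-0.59).

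At the other end EIF3F was at 145, 164 and 169 CPM, a ratio of 1.17 (1.11 to 1.23) in DSS+polydatin against control, and EIF3L was nearly level at 250, 263 and 244 CPM, with 51.8% of its exon bases overlapped by other genes. EIF3F and EIF3H are paired subunits with related protease-like domains, yet EIF3H was at 302, 276 and 238 CPM, a ratio of 0.791 (0.759 to 0.823). The remaining subunits, EIF3A, EIF3D, EIF3E, EIF3G, EIF3I, EIF3K and EIF3M, lay between 0.695 (EIF3M) and 0.837 (EIF3K) in DSS+polydatin against control. Of EIF3CL, 97.2% of the 50-base windows are shared with EIF3C, so how their reads were divided is uncertain. EIF3C had 340, 304 and 367 counts and EIF3CL 60, 76 and 26, or 3.3, 4.10 and 1.49 CPM. EIF3CL was at 1.24 (0.873 to 1.77) in DSS against control, and its calls at 0.363 (0.223 to 0.574) in DSS+polydatin against DSS and 0.451 (0.273 to 0.726) in DSS+polydatin against control rest on these counts. EIF3C was at 1.28 (1.1 to 1.5) in DSS+polydatin against DSS.

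EIF5A was the abundant member furthest down in DSS+polydatin against DSS. It encodes eIF5A, the hypusine-bearing factor that, despite its name, mainly helps elongating ribosomes through stalling sequences and at termination, and lies on chromosome 17 (7306999 to 7312463). Its level was 264, 227 and 138 CPM (4789, 4206 and 2408 counts), so control and DSS lay near each other and DSS+polydatin well below. The EIF5A ratio was 0.861 (0.826 to 0.897) in DSS against control, 0.608 (0.578 to 0.640) in DSS+polydatin against DSS and 0.524 (0.498 to 0.550) in DSS+polydatin against control. EIF5A2, a paralog usually at low levels in adult tissue and gained in some tumours, was nearly level, at 27.9, 25.2 and 28.9 CPM with a ratio of 1.15 (1.01 to 1.31) in DSS+polydatin against DSS. Per length EIF5A exceeded EIF5A2 by 18.8 (17.1 to 20.6) in control, 17.9 (16.3 to 19.8) in DSS and 9.49 (8.62 to 10.5) in DSS+polydatin. With the longest transcript as the length, these ratios were 35.0, 33.4 and 17.7. The EIF5A-like gene EIF5AL1 was at 6.0, 4.75 and 2.47 CPM (109, 88 and 43 counts). Its ratio was 0.791 (0.591 to 1.06) in DSS against control, 0.519 (0.352 to 0.756) in DSS+polydatin against DSS and 0.411 (0.282 to 0.590) in DSS+polydatin against control, the lowest of the 49 members in the last comparison. EIF5AL1 shares 15.4% of its windows with other genes, mainly EIF5A. The hydroxylase DOHH, which completes the hypusine of eIF5A, was low in all libraries at 4.19, 7.34 and 7.34 CPM and was called higher in DSS against control at 1.75 (1.32 to 2.35).

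The factors of subunit joining differed in direction. EIF5B, the GTPase that joins the large subunit, was at 419, 332 and 282 CPM, with ratios of 0.794 (0.768 to 0.821) in DSS against control and 0.673 (0.649 to 0.698) in DSS+polydatin against control. The second of these lay at the threshold and became a call with DESeq2 size factors (log2 -0.60). EIF6, which keeps the free large subunit from joining early, was at 83.8, 95.3 and 89.7 CPM, with ratios of 1.14 (1.06 to 1.22) and 1.07 (0.997 to 1.15).

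A pyrimidine run at the start of a transcript, the TOP motif, places the translation of a messenger RNA under mTORC1 control, and many genes of the translation machinery carry one. A start was counted as TOP-like when its first base was C and was followed by at least 4 pyrimidines, read on the gene's strand only. Such starts were found for 10 of the 44 members with a promoter (22.7%), for 7.41% of the measured protein-coding genes with one and for 5.14% of all genes with one. Counted by promoter, they made up 16.7% of the members' 60 and 4.07% of all promoters. Their start windows are printed to show the runs, from 20 bases before the start to 15 bases from it, with the pyrimidine run in capitals.
EIF2A (chr3:150546767-150546801, plus strand): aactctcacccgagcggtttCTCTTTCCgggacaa
EIF2D (chr1:206612451-206612485, minus strand): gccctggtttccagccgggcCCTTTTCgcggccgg
EIF2S3 (chrX:24054936-24054970, plus strand): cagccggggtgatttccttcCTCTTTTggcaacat
EIF2S3B (chr12:10505870-10505904, plus strand): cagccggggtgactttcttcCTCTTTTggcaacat
EIF3D (chr22:36529152-36529186, minus strand): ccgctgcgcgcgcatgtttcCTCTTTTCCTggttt
EIF3F (chr11:7987317-7987351, plus strand): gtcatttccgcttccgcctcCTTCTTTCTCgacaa
EIF3K (chr19:38619168-38619202, plus strand): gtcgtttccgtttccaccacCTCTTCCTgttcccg
EIF3M (chr11:32583811-32583845, plus strand): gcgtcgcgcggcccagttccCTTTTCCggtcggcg
EIF4A2 (chr3:186783557-186783591, plus strand): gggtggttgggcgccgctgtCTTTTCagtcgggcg
EIF4B (chr12:53006436-53006470, plus strand): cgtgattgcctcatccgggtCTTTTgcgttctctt
For contrast, the windows of EIF1, which was higher in DSS+polydatin, and of EIF4E, EIF2S1 and EIF3J, which were called lower there against control, hold no such run at the start.
EIF1 (chr17:41688865-41688899, plus strand): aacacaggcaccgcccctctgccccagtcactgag
EIF4E (chr4:98929119-98929153, minus strand): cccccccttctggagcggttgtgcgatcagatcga
EIF2S1 (chr14:67360308-67360342, plus strand): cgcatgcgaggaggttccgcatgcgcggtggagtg
EIF3J (chr15:44537127-44537161, plus strand): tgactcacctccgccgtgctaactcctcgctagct
None of the 10 members with a TOP-like start was called lower in DSS+polydatin against control, where 9 of the 31 measured members without one were (29%). Their medians were close, at 0.801 and 0.786, and over all measured genes 10.9% of those with a TOP-like start and 12.5% of those without were called lower. The ratios of the 10 ran from 0.695 (EIF3M) to 1.17 (EIF3F). EIF2S2, EIF3CL and EIF4EBP1, also called lower in DSS+polydatin against control, had no matched promoter and are in neither group. The RefSeq start is 1 annotated position per promoter and may not be the start used in these cells. Of the other motifs searched on both strands, TGACG, the core of the cyclic AMP response element, was present in 47.7% of the 44 members and 40.3% of measured genes, and TGATGNAA, the form bound by ATF4 with C/EBP factors, in 2.27% and 2.79%.

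The other genes of the pathway, in 7 lists of kinases, regulators, helpers and later translation factors, held genes called in either direction. Of 89 measured genes in these lists, 5 were called higher and 3 lower in DSS against control, 1 higher and 3 lower in DSS+polydatin against DSS, and 8 higher and 14 lower in DSS+polydatin against control. The shares over all measured protein-coding genes, which serve for each list below, were 9.39% higher and 5.31% lower, 4.77% and 2.34%, and 15.8% and 12.4% in the same order.

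Of 12 genes acting on eIF2 phosphorylation, 1 was called higher in DSS against control, none in DSS+polydatin against DSS, and 2 were called higher and 2 lower in DSS+polydatin against control. PPP1R15A, or GADD34, the stress-induced subunit that directs a phosphatase to eIF2, was at 44.9, 69.7 and 86.5 CPM, with ratios of 1.55 (1.42 to 1.70) in DSS against control and 1.93 (1.77 to 2.10) in DSS+polydatin against control. EIF2AK3, or PERK, the eIF2 kinase of the endoplasmic reticulum, was at 50.7, 68.1 and 88.1 CPM, with a ratio of 1.74 (1.6 to 1.89) against control in DSS+polydatin. The amino-acid-sensing kinase EIF2AK4, or GCN2, was at 94.3, 74.8 and 62.5 CPM (0.663, 0.614 to 0.715), and its inhibitor IMPACT at 49.3, 35.9 and 27.4 CPM (0.556, 0.496 to 0.621). ATF4, the transcription factor whose translation rises when eIF2 is phosphorylated, was at 532, 441 and 544 CPM as RNA. Phosphorylation of eIF2 was not measured.

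On the mTORC1 side, 21 of 22 genes were measured, with 2 called higher and 2 lower in DSS against control, 1 higher and none lower in DSS+polydatin against DSS, and 4 higher and 2 lower in DSS+polydatin against control. The mTORC1 inhibitor DDIT4, or REDD1, was at 54.5, 21.4 and 32.9 CPM, with ratios of 0.393 (0.349 to 0.442) in DSS against control and 1.53 (1.35 to 1.75) in DSS+polydatin against DSS. SESN2, a leucine sensor that restrains mTORC1, was at 31.3, 16.8 and 23.6 CPM, with a DSS against control ratio of 0.537 (0.467 to 0.618), and its relative SESN1 at 65.8, 47.0 and 36.1 CPM. AKT1S1, which encodes PRAS40, an mTORC1 component that also restrains it, was at 32.9, 66.8 and 72.6 CPM. Its DSS against control ratio was 2.03 (1.84 to 2.24), so the named inhibitors of mTORC1 differed in direction.

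Among 18 helpers of initiation outside the EIF names, 14 lay below 1 in DSS+polydatin against control. There 2 were called lower and 1 higher, DOHH at 1.75 (1.31 to 2.36). ABCE1, the ATPase that splits ribosomes for reuse and also meets the initiation complex, was at 299, 241 and 148 CPM, with called ratios of 0.613 (0.584 to 0.644) against DSS and 0.494 (0.472 to 0.518) against control. DHX29, a helicase for structured leaders, was at 111, 75.1 and 58.7 CPM, a ratio of 0.530 (0.491 to 0.572) against control. The 9 genes of poly(A)-binding proteins and partners held 1 called gene, PAIP2B, an inhibitor of poly(A)-binding protein, at 18.1, 12.3 and 9.92 CPM.

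Later steps of translation held calls in either direction too. Of 13 measured genes for cytosolic elongation, 4 were called lower and 1 higher in DSS+polydatin against control. EEF1A2, the eEF1A form typical of muscle and neurons, was at 9.14, 18.4 and 23.3 CPM, a ratio of 2.55 (2.12 to 3.07), while EEF1E1, a component of the multi-synthetase complex, was at 18.6, 18.1 and 10.7 CPM, a ratio of 0.573 (0.477 to 0.687). Among 6 release and recycling genes, 4 lay below 1 and 2 above. GSPT2, a form of release factor eRF3, was called lower at 0.604 (0.523 to 0.697), on 29.1, 23.5 and 17.6 CPM. GSPT1, the more abundant eRF3 gene at 239, 317 and 281 CPM, was not called, at 1.18 (1.13 to 1.23). Of 10 measured mitochondrial translation factors, all lay below 1 in DSS+polydatin against control, with a median log2 ratio of -0.45, where 52.3% of all measured genes lay below 1 and their median was -0.03. Of the 10, 2 were called lower, beside 12.4% of all genes: GFM1, a mitochondrial elongation factor, at 0.647 (0.609 to 0.687), and the initiation factor MTIF2, at 0.667 (0.620 to 0.717).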

How the data were processed

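RNA was sequenced from 3 Caco-2 libraries, 1 per group, so the ratios compare libraries and no p-value or SD across cultures can be given. The values deposited by the authors are unnormalized counts, whole numbers of reads for each Ensembl gene. Reads were aligned with HISAT2 to GRCh38, per the submitters' processing notes; not given in the sources used here are the HISAT2 version, which program counted reads, which annotation it used and whether it used strand. Without strand, reads of overlapping genes cannot be told apart. Symbols matched 60463 of 60664 identifiers, and gene types, coordinates and lengths came from GENCODE 29 (58396 identifiers). A further 85 identifiers with such a symbol are not protein-coding and were left out. The members and lists were chosen with earlier results of these data known.

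Counts were scaled by TMM (edgeR 4.0.16, R 4.3.3), with factors of 0.971, 0.984 and 1.05 for control, DSS and DSS+polydatin. Genes with at least 1 CPM in at least 1 library were measured (12279 protein-coding). Ratios and exact 95% Clopper-Pearson intervals came from scipy 1.17.1 in Python 3.11.15 and were tested on simulated data. Reads carry no molecular identifiers, so intervals cover counting error only. TPM used the union of exons. Shared windows of 50 bases were counted between GENCODE transcripts. Promoters are RefSeq's on GRCh38.p14. Full values are given for every member called and for a fixed set of core members. Other members are given by range with the extremes named. For each other list, values of up to 4 called genes are given, with ATF4 and MYC for context. DOHH is named with EIF5A, and EEF1A1, EEF2 and GSPT1 are named though not called. Alternatives were total counts, 2 added counts, other fold thresholds, DESeq2 1.42.0 size factors, no minimum or one of 10 CPM, thinning, and removal of a GC and length trend (statsmodels 0.14.6). Leaving out 7 near-copies and read-through genes was added after seeing the data. Figures used matplotlib 3.10.9.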

Additional observations from a re-analysis of the deposited data

How the results depend on the processing

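No called value of a named gene changed direction under any alternative run. Of 579 recomputed values for named genes, 513 moved by less than their counting interval and 66 by more: 32 with total counts, 32 with the GC and length trend removed and 2 with DESeq2 size factors. Among the genes given with full values a call changed in 15 cases, each given beside its gene above except EIF2B3, called lower in DSS against control (log2 -0.61) after thinning to the smallest library.

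With total counts, 1 member was called lower in DSS against control, and 1 higher (EIF4E3) and 7 lower in DSS+polydatin against control, where the members' median log2 ratio was -0.23; of the other translation genes 3 were then higher in DSS+polydatin against DSS. That scaling moved the median of all genes in DSS+polydatin against control from -0.03 to 0.08, and the members' median less that of all genes was -0.31 with both. With the trend removed, 1 member was lower in DSS against control, and the members' median less that of all genes was -0.08, -0.13 and -0.20 in DSS against control, DSS+polydatin against DSS and DSS+polydatin against control, where it was -0.14, -0.17 and -0.31 before. In DSS+polydatin against DSS 1 member (EIF5A) was lower at a CPM of at least 10, and likewise without near-copies and read-through genes; both settings use fewer genes. At 1.2-fold the counts were 11 lower in DSS against control, 2 higher and 16 lower in DSS+polydatin against DSS, and 2 higher and 31 lower in DSS+polydatin against control. At 2-fold 1, 1 and 4 were lower. The cause was not tested where not stated. No paired analysis was possible because each group is 1 library, and no library could be left out. Depth limits EIF4E3, EIF3CL, EIF5AL1 and EIF4A1 most, and a 1.5-fold change between cultures of the same treatment was not measured.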
